A study of Mus musculus with 72 samples.

Results

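The 76 probes described here are lung-enriched: in sham mice each had a median lung level above 8 log2 and at least 3 log2 above the median of every other organ measured. They are 76 (0.338%) of the 22504 array probes whose table rows follow the column header, and 67 of them carry a symbol, for 61 genes. They were chosen on the sham arrays of lung, spleen, liver, kidney and heart, so their sham levels are a description. The study asked which transcripts change in septic mice given mesenchymal stem cells. All mice were female C57Bl/6J, and organs were taken 28 hours after surgery. The MSC arm had cecal ligation and perforation (CLP), a gut injury used as a model of sepsis, and 6 hours later 250000 mesenchymal stem cells from male mice, at passage 8 to 11, in 100 µL. The CLP arm had the injury and saline, and the sham arm had surgery without the injury and saline. Each arm comprised 5 mice, each giving lung, liver, kidney and heart, and 4 spleens with labels of their own, in all 72 Illumina bead arrays, while the design text speaks of 4 animals per group. Values below are log2 intensities, in the mouse order 16M, 44M, 61M, 100M and 101M for MSC, 24C, 34C, 35C, 37C and 107C for CLP, and 21S, 22S, 76S, 77S and 78S for sham.

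The lung is lined by several epithelia that few other organs share. Alveolar type 1 cells form the thin gas exchange surface, and alveolar type 2 cells make surfactant, the lipid and protein film that keeps the air spaces open. The conducting airways are lined by secretory cells, which release antimicrobial and mucus proteins, and by ciliated cells, whose motile cilia beat on dynein motors and clear mucus. The members were grouped by these roles, with 17 probes of 14 genes for cilia, 13 probes of 11 genes for the alveolar epithelium, 9 probes for airway secretion and defence, 4 for endothelium, mesenchyme and signals, and 33 for other or unknown roles. Motile cilia genes are controlled by RFX and FOXJ1 factors, and surfactant genes by NKX2-1. Nkx2-1 was itself a member.

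The 250 bases upstream of the transcription start are shown for 4 cilia members and 2 alveolar members that hold the motif searched, since these are the groups whose levels are described most fully below. Sequences are from RefSeq (GRCm38.p6), printed 5′ to 3′ on the gene's strand, with capitals marking GTTGCC or GGCAAC, the letters of a site of RFX factors on either strand.
Cdhr3 (chr12:33092876-33093125, minus strand): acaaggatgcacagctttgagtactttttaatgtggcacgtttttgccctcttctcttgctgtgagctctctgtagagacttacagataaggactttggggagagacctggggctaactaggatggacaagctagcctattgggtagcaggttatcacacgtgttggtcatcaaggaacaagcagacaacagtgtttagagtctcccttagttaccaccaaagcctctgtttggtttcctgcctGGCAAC
Cfap161 (chr7:83794840-83795089, minus strand): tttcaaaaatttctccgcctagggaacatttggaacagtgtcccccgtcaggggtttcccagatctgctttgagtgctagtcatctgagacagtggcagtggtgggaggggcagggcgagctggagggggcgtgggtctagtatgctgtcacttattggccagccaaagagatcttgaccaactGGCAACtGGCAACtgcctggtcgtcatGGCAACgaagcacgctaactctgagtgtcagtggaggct
Fam183b (chr11:58801961-58802210, minus strand): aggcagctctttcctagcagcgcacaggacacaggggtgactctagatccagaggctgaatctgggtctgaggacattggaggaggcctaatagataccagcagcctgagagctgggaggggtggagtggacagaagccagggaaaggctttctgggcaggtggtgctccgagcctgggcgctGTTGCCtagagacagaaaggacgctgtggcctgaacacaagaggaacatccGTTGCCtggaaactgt
Dynlrb2 (chr8:116504765-116505014, plus strand): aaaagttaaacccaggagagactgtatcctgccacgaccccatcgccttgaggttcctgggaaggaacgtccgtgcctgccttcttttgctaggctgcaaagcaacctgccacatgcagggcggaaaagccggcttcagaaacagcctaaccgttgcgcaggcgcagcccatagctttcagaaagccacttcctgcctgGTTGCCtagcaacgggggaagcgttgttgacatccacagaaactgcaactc
These letters stood in any entry of 8 of the 11 cilia genes listed by RefSeq (72.7%), against 11.8% of 27025 genes in the same window. The 8 were 1110017D15Rik, Ccdc113, Cdhr3, Cfap161, Drc1, Dynlrb2, Fam183b and Tekt1. The motif stood in 1 of 10 alveolar genes, 0 of 7 airway genes and 5 of 16 genes of other roles. In Cfap161 it occurred 3 times, at -66, -59 and -39 from the start. In the next sequences capitals mark CAAGTG or CACTTG, the core of an NKX2-1 site. Cldn18 has 2 entries, and the one shown is the first that holds this core. Which of the 2 starts is used in lung was not tested.
Sftpa1 (chr14:41131538-41131787, plus strand): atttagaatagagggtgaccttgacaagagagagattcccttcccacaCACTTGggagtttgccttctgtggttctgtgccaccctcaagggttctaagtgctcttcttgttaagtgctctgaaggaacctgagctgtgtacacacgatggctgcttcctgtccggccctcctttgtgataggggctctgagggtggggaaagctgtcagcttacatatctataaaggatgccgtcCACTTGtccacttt
Cldn18 (chr9:99710064-99710313, minus strand): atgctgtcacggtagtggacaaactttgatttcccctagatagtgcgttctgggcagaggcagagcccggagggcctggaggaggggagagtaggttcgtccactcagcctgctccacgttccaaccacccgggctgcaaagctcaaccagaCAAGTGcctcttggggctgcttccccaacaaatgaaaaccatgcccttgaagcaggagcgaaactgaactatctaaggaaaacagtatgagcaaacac
This core stood in 3 of 10 alveolar genes (Cldn18, Lyz1 and Sftpa1), against 13.2% of all genes and 1 of 11 cilia genes. TGTTTAC or GTAAACA, a core of forkhead factor sites, stood in 0 of 11 cilia genes and in 3.5% of all genes. These matches describe letters only, and 47 of the 61 member genes had an entry.

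In sham mice the members' lung medians ran between 8.04 and 14.69 log2, with a median of 10.21. Their gap to the next organ had a median of 4.14 log2, and 52 of the 76 stayed under 6 log2 in every other organ. Cxcl15, a chemokine of the lung epithelium that attracts neutrophils, had the highest sham level (14.69) and the widest gap (9.60). The next highest were Tmem100, an endothelial gene downstream of BMP signalling (14.08), the surfactant protein Sftpb (14.06), the epithelial membrane protein Emp2 (13.67), the surfactant protein Sftpa1 (13.62) and the lysozyme Lyz1 (13.29). After Cxcl15 the widest gaps were those of Sftpb (8.78), Sftpa1 (8.50), Bpifb1, a secreted airway defence protein (7.74), Cldn18, a tight junction claudin (7.38), and Lamp3, a protein of surfactant storage bodies (6.88). The organ with the next highest level was spleen for 26 members, heart for 20, kidney for 17 and liver for 13. By their values the spleen arrays were normalized apart from those of the other organs, so gaps to spleen, here and below, compare separately scaled sets. Just inside the threshold lay Chil3 (3.0002), Drc1 (3.0035) and Elapor1 (3.04), and just outside it Erich3 (2.9436), Esyt3 (2.9387) and Igfbp6 (2.9323).

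**Figure D1:**
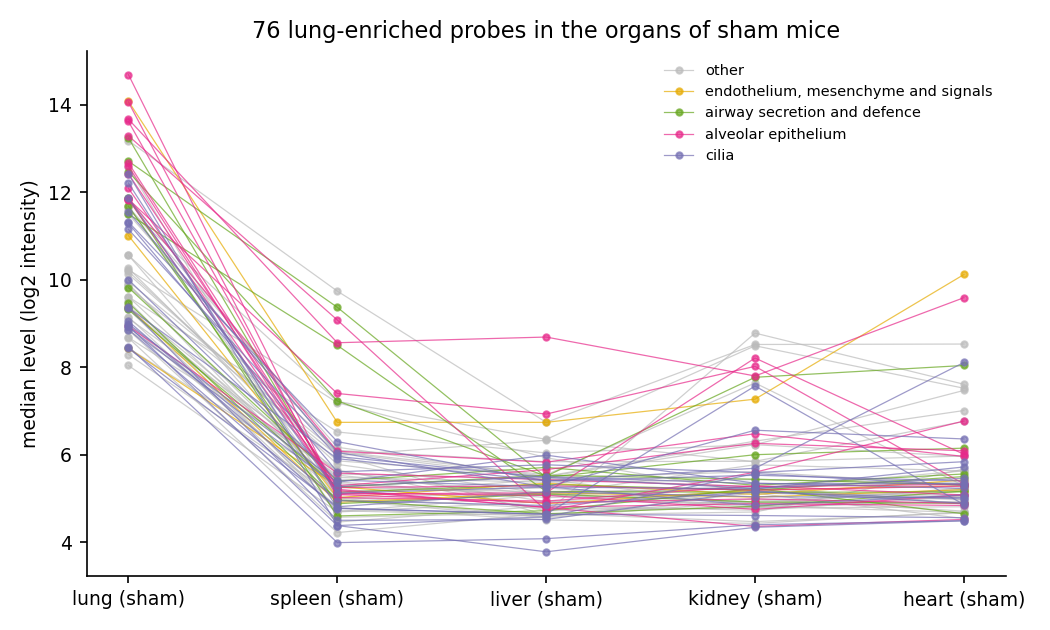
Median log2 intensity of each of the 76 probes over the sham arrays of each organ (5 mice, 4 spleens), with 1 line per probe coloured by role. Lung medians lie between 8.04 and 14.69, and 52 probes lie under 6 in all other organs.

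Some arrays stood apart before any comparison. Over the 8684 probes tested in lung, the lungs farthest from the rest of their arm were CLP mouse 107C (root mean square 0.468 log2) and CLP mouse 35C (0.421). Over the 76 members they were CLP mouse 35C (0.962), CLP mouse 107C (0.859) and sham mouse 21S (0.765), and the other 12 lungs lay at 0.245 to 0.526. Among the 15 hearts, 5 (MSC 16M, CLP 34C, 37C and 107C, and sham 78S) read 10.80 to 13.44 log2 for Scgb1a1, the main secretory protein of airway club cells, while the other 10 read 3.26 to 6.25. Of the 12 spleen columns, 7 carry another label in the second deposited table, and 2 of these cross arms. In the lung itself, of 9 tested neutrophil marker probes 5 were higher in CLP than in sham lungs and 0 lower. Of 5 lymphocyte marker probes 0 were higher and 5 lower. The shares over all 8684 probes were 15.9% higher and 16.5% lower. Those cell type markers moved with the results that follow, and their part in them was not tested.

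Lung enrichment was first checked in the arms the rule did not use. Of the 76 members, 75 were higher in lung than in each of liver, kidney and heart of MSC mice (limma over 60 arrays, adjusted p below 0.05 in all 3 contrasts), against 12.9% of all probes. In CLP mice 74 were, against 11.9%. Clca1, a secreted protein of mucus cells, was the exception in MSC mice and passed in none of the 3 contrasts. Its lung level lay 0.615 log2 above liver, 0.806 above kidney and 0.774 above heart (limma adjusted p = 0.4036, 0.3032 and 0.3356). The median of Clca1 in MSC lungs was 6.05 log2. The exceptions in CLP mice were Dmkn, a secreted protein known from skin, and Anxa8, an annexin. Their lung levels lay 0.60 and 0.72 log2 above heart (adjusted p = 0.37 and 0.07), and both were among the members that were higher in CLP than in sham hearts. Without the 5 hearts with high Scgb1a1, all 76 passed in CLP mice. The gap of lung to the highest other organ, spleen included, had a median of 3.85 log2 in MSC mice and 3.36 in CLP mice. There 59 and 48 members kept 3 log2 or more. These gaps used all hearts, and 3 of the 5 CLP hearts but 1 of the 5 MSC hearts had high Scgb1a1. The median of Bpifb1, for example, was 9.52 log2 in CLP hearts and 5.50 in sham hearts. Gaps without the 5 hearts with high Scgb1a1 are not given here, so the arms are not compared by gap.

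In the lungs of CLP mice most changes of the members were losses. Of 76 tested, 38 fell and 6 rose relative to sham lungs (limma, adjusted p below 0.05), or 57.9% called in either direction, where 32.4% of all 8684 probes tested were called, 16.5% lower and 15.9% higher. The median difference of the members was -0.43 log2, against 0.02 over all probes. For 23 members every CLP lung lay below every sham lung, and for 0 every CLP lung lay above, where 8.5% and 8.27% of all probes did so. On leaving out 1 lung the falls numbered 32 to 42 and the rises 1 to 9, with 1 rise without sham mouse 22S or 77S. The sham lungs here also chose the members for being high in them, so these counts are a description. In whole organs, fewer cells of a type and less RNA per cell cannot be told apart.

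In lungs of MSC mice most members read higher than in CLP lungs, but these differences did not pass the threshold. Between MSC and CLP lungs, arms the rule did not use, limma called 0 of 76 members and 0 of all probes (0%). At an unadjusted p below 0.05 the count was 43 members, 37 higher and 6 lower in MSC lungs, where 12.6% of all probes were higher and 13.5% lower. The members' median difference was 0.31 log2, against -0.01 over all probes. For 7 members all MSC lungs lay above all CLP lungs and for 0 all lay below, against 0.714% and 1.26% of all probes. Without CLP mouse 107C, 42 members passed, 35 higher and 7 lower, where 12.2% of all probes passed higher and 11.6% lower. Without CLP mouse 34C, 1 member passed (0.0341% of all probes).

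Between MSC and sham lungs 13 members were called, where 9.11% of all probes were. Of these 10 were lower (4.91% of all) and 3 higher (4.2% of all), and the arms did not overlap for 14 lower and 5 higher members (7.08% and 5.55% of all). The lower members were Clca1 (-3.84 log2), the unnamed ILMN_2835481 (-1.33), Lypd2 (-1.25), Nckap5 (-1.04), Lyz1 (-0.97), Sec14l3 (-0.90), Cldn18 (-0.87), Fam162b (-0.86), Tppp3 (-0.65) and Emp2 (-0.60). The higher ones were the iron-binding defence protein Ltf (1.11), the lipase Liph (0.66) and the unnamed ILMN_1260170 (0.62). Without sham mouse 76S 7 members were called (6.46% of all probes), and 7 without MSC mouse 101M (7.32%). Of the 38 members that fell after CLP, the MSC mean lay between the CLP and sham means for 27. It lay below CLP for 4 and at or above sham for 7. The 38 were picked for CLP levels below sham levels in these same arrays, which alone favours an MSC mean between them. The same counts over all probes that fell are not given here, so these counts are a description. A return towards sham levels was not tested. The comparisons with CLP share the CLP arrays and those with sham share the sham arrays, so they are not independent.

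**Figure D2:**
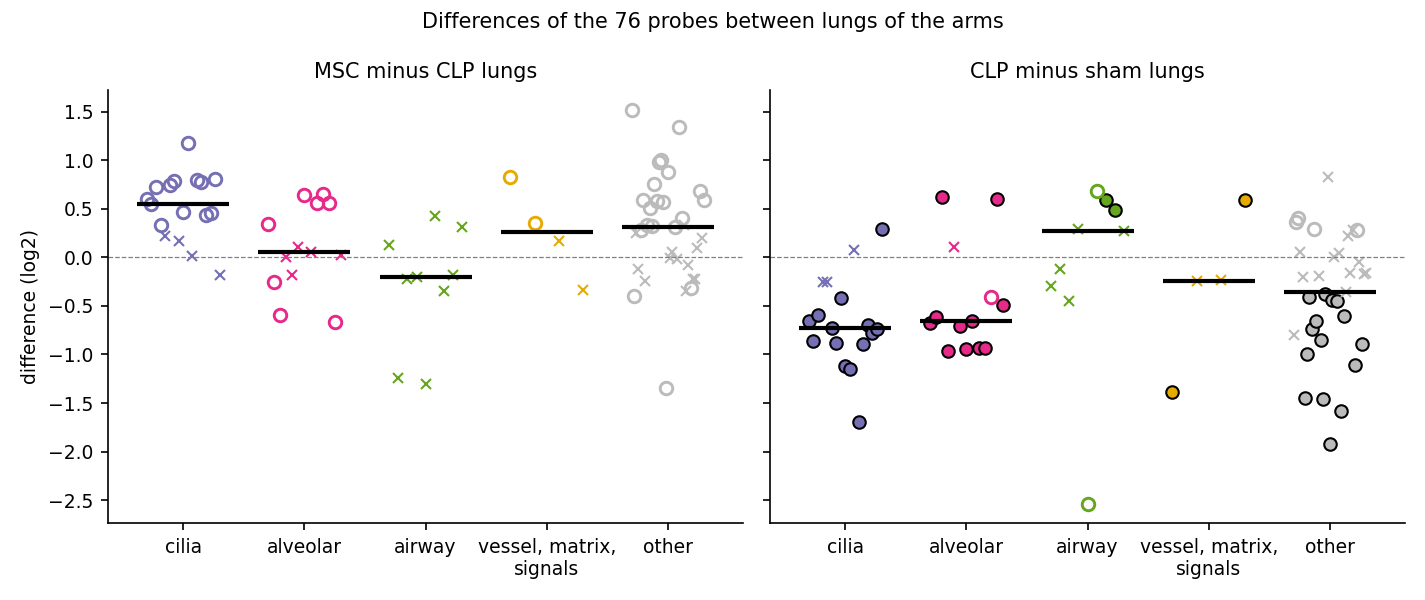
Difference in log2 level of each of the 76 probes between MSC and CLP lungs (left) and between CLP and sham lungs (right), by role. Filled points have an adjusted p below 0.05, open points only an unadjusted p below 0.05, crosses neither, and the line is the median of the role: for cilia it is 0.55 on the left and -0.73 on the right.

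Cilia genes fell together in CLP lungs. Of 17 probes 13 were lower and 1 higher than in sham lungs, where 16.5% and 15.9% of all probes were. The median difference was -0.73 log2. Averaged over the 17 probes, MSC lungs read 9.98 ± 0.14, CLP lungs 9.46 ± 0.37 and sham lungs 10.13 ± 0.09 (SD, n = 5 each). The CLP lungs were uneven, with 9.84 in 107C and 9.81 in 34C but 9.46 in 24C, 9.13 in 37C and 9.06 in 35C. The MSC lungs ran between 9.83 and 10.19 and overlapped the sham lungs (10.03 to 10.20). Between MSC and CLP lungs the median difference was 0.55 log2. An unadjusted p below 0.05 was found for 13 of 17, against 26% of all probes. Without mouse 107C 12 of 17 were called higher, where 12.2% of all probes were. Between MSC and sham lungs 2 were called, both lower, where 4.91% of all probes were lower.

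Sec14l3, a lipid transfer protein of ciliated and alveolar cells, read 10.93, 11.26, 11.74, 11.52 and 11.05 in MSC lungs, 10.09, 11.02, 9.80, 10.30 and 11.31 in CLP lungs and 12.22, 12.21, 12.34, 12.21 and 12.01 in sham lungs. Every CLP lung lay below every sham lung, and so did every MSC lung. The CLP level was 3.24-fold lower than sham (-1.69 log2, SE 0.24, adjusted p = 0.000114), and MSC minus CLP was 0.79 (adjusted p = 0.0739). Cfap161, a protein of the ciliary axoneme, read 8.45, 8.13, 8.60, 8.77 and 8.61 in MSC lungs, 7.37, 7.82, 6.17, 7.07 and 8.23 in CLP lungs and 8.61, 8.47, 8.53, 8.45 and 8.33 in sham lungs. Here the MSC lungs overlapped the sham lungs, with 44M below and 100M above all of them, and CLP mouse 35C was far the lowest. The CLP level was 2.22-fold lower than sham (-1.15 log2, SE 0.26, adjusted p = 0.00412), and MSC minus CLP was 1.18 (SE 0.26, adjusted p = 0.0708).

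Cdhr3, a cadherin of ciliated cells that in humans is a rhinovirus receptor, had 2 probes that moved alike (-0.74 and -0.73 log2 in CLP against sham lungs, r = 0.86 over 15 lungs). Its brighter probe read 11.12, 11.18, 11.53, 11.03 and 10.96 in MSC lungs, 10.23, 10.65, 10.07, 9.97 and 10.84 in CLP lungs and 11.31, 11.15, 11.18, 10.91 and 10.90 in sham lungs. All MSC lungs and all sham lungs lay above all CLP lungs, and MSC minus CLP was 0.81 (SE 0.16, adjusted p = 0.0708). Dynlrb2, a dynein light chain, read 12.46, 12.32, 12.69, 12.38 and 12.26 in MSC lungs, 11.95, 12.25, 11.13, 11.53 and 12.24 in CLP lungs and 12.42, 12.64, 12.59, 12.39 and 12.35 in sham lungs. The CLP arm again lay below both others without overlap, though its highest lung was just under the lowest MSC lung. Its difference from sham was -0.66 log2 (SE 0.17, adjusted p = 0.00983), and MSC minus CLP was 0.60 (adjusted p = 0.0728).

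Fam183b, a protein of motile cilia, read 11.67, 11.63, 11.86, 11.96 and 11.90 in MSC lungs, 11.03, 11.48, 10.26, 10.59 and 11.71 in CLP lungs and 11.84, 11.98, 11.97, 11.84 and 11.86 in sham lungs. Its CLP lungs all lay below its sham lungs (-0.88 log2, adjusted p = 0.00416), while mouse 107C overlapped the MSC lungs. Tppp3, a protein that promotes tubulin polymerisation, read 10.75, 10.52, 10.96, 10.71 and 10.45 in MSC lungs, 10.38, 10.69, 9.84, 9.59 and 10.54 in CLP lungs and 11.15, 11.27, 11.44, 11.44 and 11.32 in sham lungs. It was 2.17-fold lower in CLP than in sham lungs (adjusted p = 0.000312), and unlike Cfap161 it was also below sham in all MSC lungs. Other falls in CLP lungs were those of Cfap299 (-0.89), the radial spoke protein Rsph1 (-0.86), 1110017D15Rik (-0.78 and -0.69 by its 2 probes), the dynein regulatory protein Drc1 (-0.59) and Cfap45 (-0.42). Ccdc113 (-0.25, adjusted p = 0.258) and the tektin Tekt1 (0.08, adjusted p = 0.601) did not pass. The 2 probes of Cfap206 disagreed, at -0.25 (adjusted p = 0.187) and 0.30 (adjusted p = 0.0322), with r = -0.21 over 15 lungs, so no direction is given for that gene.

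**Figure D3:**
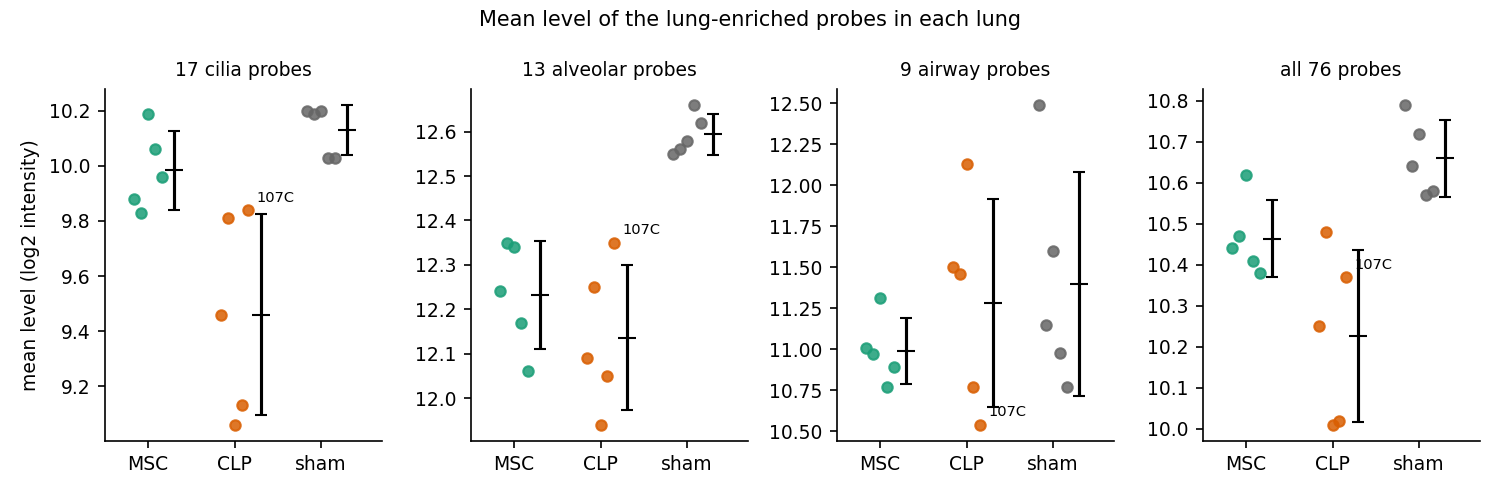
Mean log2 intensity of the cilia, alveolar, airway and all 76 probes in each of the 15 lungs, by arm, with the arm mean ± SD beside the points and CLP mouse 107C marked. For cilia MSC lungs overlap sham lungs, and for alveolar probes all MSC and CLP lungs lie below all sham lungs.

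Alveolar genes fell in CLP lungs too, and their mean stayed below sham in MSC lungs. Of 13 probes 9 were lower and 2 higher in CLP than in sham lungs (median -0.66 log2), against 16.5% and 15.9% of all probes. The mean over the 13 probes was 12.23 ± 0.12 in MSC lungs, 12.14 ± 0.16 in CLP lungs and 12.59 ± 0.05 in sham lungs (SD, n = 5 each). The MSC lungs (12.06 to 12.35) and the CLP lungs (11.94 to 12.35) overlapped, and both lay below all sham lungs (12.55 to 12.66). Between MSC and CLP lungs the median difference was 0.05 log2. An unadjusted p below 0.05 was found for 8 of 13, against 26% of all probes. Without mouse 107C, 5 were called higher and 2 lower, where 12.2% and 11.6% of all probes were. Between MSC and sham lungs 3 were called, all lower (Emp2, Lyz1 and Cldn18), where 4.91% of all probes were lower.

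Among secreted and surfactant genes, Cxcl15 read 14.14, 14.33, 14.67, 14.61 and 14.71 in MSC lungs, 13.59, 14.11, 13.27, 13.48 and 14.80 in CLP lungs and 15.30, 14.91, 14.53, 14.69 and 14.52 in sham lungs. It was 1.92-fold lower in CLP than in sham lungs (SE 0.24 log2, adjusted p = 0.00721), although mouse 107C lay within the sham range. Lamp3 had 2 probes that moved alike (-0.93 and -0.94 log2, r = 0.98). The brighter read 11.51, 11.68, 11.96, 11.55 and 11.72 in MSC lungs, 11.20, 11.12, 10.70, 10.72 and 11.85 in CLP lungs and 12.21, 12.15, 11.79, 12.09 and 12.01 in sham lungs. Leaving 107C aside, its CLP lungs lay below all MSC lungs and all sham lungs.

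Sftpa1 was 1.60-fold lower in CLP than in sham lungs (-0.68 log2, adjusted p = 0.00305), with 13.16, 13.26, 13.61, 13.37 and 12.95 in MSC lungs, 12.71, 12.97, 12.89, 12.58 and 13.46 in CLP lungs and 13.63, 13.56, 13.73, 13.62 and 13.44 in sham lungs. Sftpb did not pass (-0.41, adjusted p = 0.0633). It read 14.20, 14.07, 14.23, 14.02 and 13.98 in MSC lungs, 13.57, 13.35, 13.07, 13.81 and 13.90 in CLP lungs and 13.53, 14.06, 13.74, 14.34 and 14.07 in sham lungs. All MSC lungs lay above all CLP lungs for Sftpb (MSC minus CLP 0.56, SE 0.16, adjusted p = 0.0727), and the sham lungs overlapped both. Nkx2-1, the transcription factor that surfactant genes need, read 8.91 ± 0.52 in MSC lungs, 9.09 ± 0.17 in CLP lungs and 8.99 ± 0.21 in sham lungs (SD, n = 5 each). Its CLP minus sham difference was 0.11 log2 (SE 0.19, adjusted p = 0.703).

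Genes of the alveolar surface and its junctions did not share 1 pattern. Cldn18 read 11.73, 11.96, 11.73, 11.99 and 11.72 in MSC lungs, 11.90, 12.47, 11.94, 12.28 and 11.82 in CLP lungs and 12.58, 12.61, 12.67, 12.75 and 12.87 in sham lungs. All MSC and CLP lungs lay below all sham lungs. MSC minus sham was -0.87 log2 (adjusted p = 0.000176), CLP minus sham -0.61 (adjusted p = 0.00159) and MSC minus CLP -0.26 (adjusted p = 0.188). Emp2 behaved alike, with 13.01, 13.15, 13.18, 13.33 and 12.89 in MSC lungs, 13.02, 13.19, 12.57, 12.88 and 13.37 in CLP lungs and 13.78, 13.98, 13.62, 13.67 and 13.51 in sham lungs (CLP minus sham -0.71, adjusted p = 0.00141). Gprc5a, an orphan receptor of the alveolar epithelium, went the other way. One of its probes read 13.01, 12.40, 12.07, 12.08 and 12.40 in MSC lungs, 13.20, 12.85, 13.27, 13.53 and 12.44 in CLP lungs and 12.13, 12.37, 12.46, 12.41 and 12.88 in sham lungs. It rose by 0.61 log2 in CLP against sham lungs (SE 0.21, adjusted p = 0.0335), and MSC minus CLP was -0.67 (SE 0.21, adjusted p = 0.0782). Its other probe gave 0.63 and -0.60. Lyz1 (-0.97), the chloride channel protein Clic3 (-0.66) and the membrane mucin Muc1 (-0.49) also fell in CLP lungs.

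**Figure D4:**
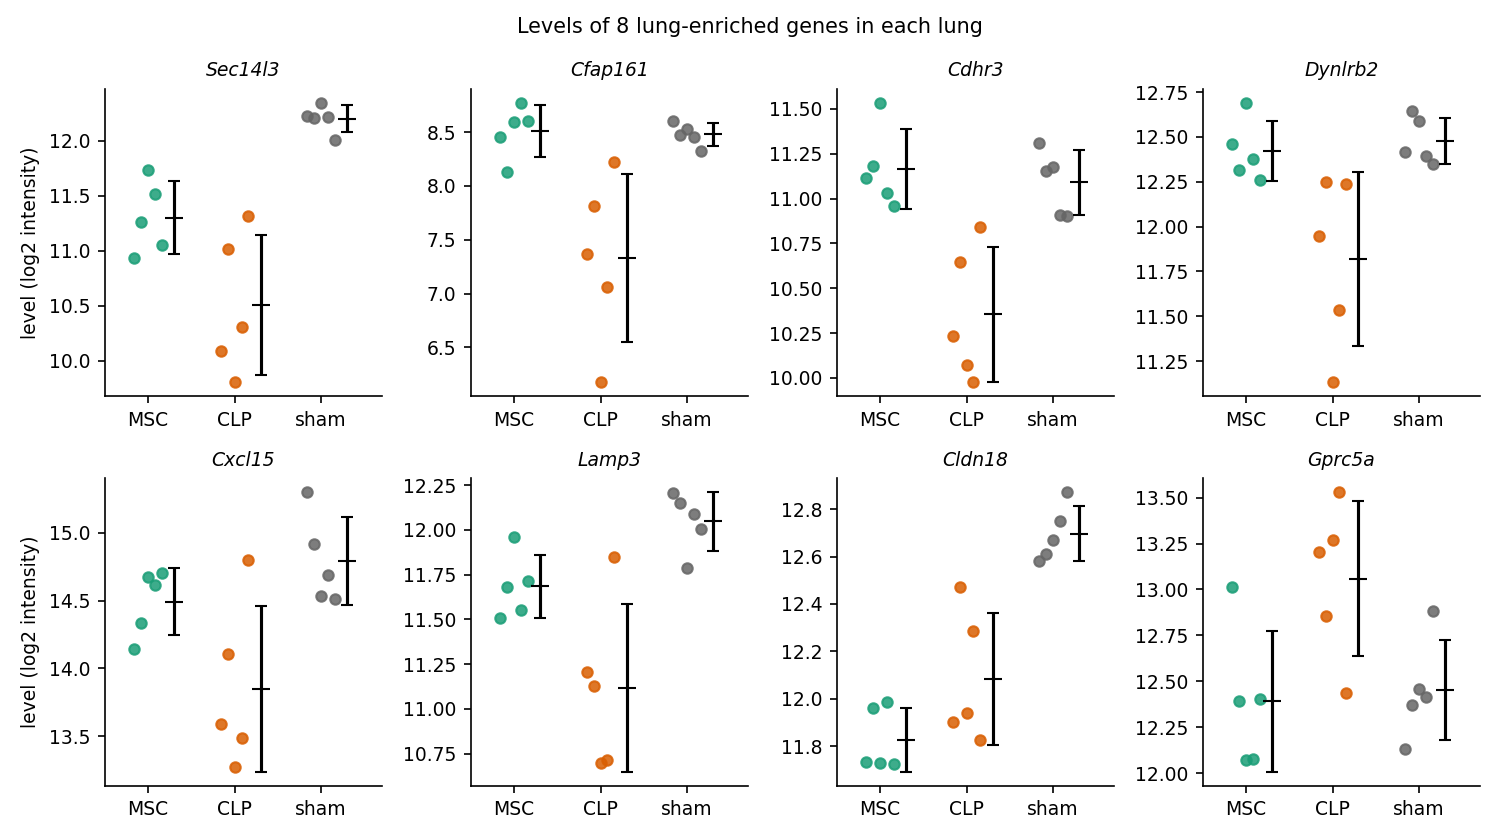
Log2 intensity of 8 members in each lung, by arm, with the arm mean ± SD beside the points. In MSC lungs Cfap161, Cdhr3 and Dynlrb2 lie near sham, Cldn18 lies below sham like the CLP lungs, and Gprc5a is highest in CLP lungs.

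Airway secretion and defence genes spread widely between mice of an arm. Of 9 probes 2 rose in CLP against sham lungs and 0 fell, where 15.9% and 16.5% of all probes did. The 2 were the mucosal chemokine Cxcl17 (0.59 log2, adjusted p = 0.038) and the acidic chitinase Chia1 (0.49, adjusted p = 0.0499). The mean over the 9 probes was 10.99 ± 0.20 in MSC lungs, 11.28 ± 0.63 in CLP lungs and 11.40 ± 0.68 in sham lungs (SD, n = 5 each). Sham mouse 21S was highest of all (12.49). Clca1 read 6.21, 6.76, 6.04, 6.05 and 5.79 in MSC lungs, 7.25, 7.06, 10.99, 6.42 and 5.65 in CLP lungs and 14.28, 9.82, 10.86, 8.15 and 6.93 in sham lungs. All MSC lungs were below all sham lungs, and the sham lungs themselves spread widely. The CLP minus sham difference of Clca1 did not pass (-2.53, adjusted p = 0.0847).

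Ltf, lactoferrin, which neutrophils as well as airway glands make, read 13.76, 13.51, 14.00, 14.49 and 14.57 in MSC lungs, 13.56, 13.48, 14.50, 13.29 and 13.36 in CLP lungs and 13.95, 12.70, 12.88, 12.54 and 12.71 in sham lungs. Only sham mouse 21S reached the levels of the injured mice. MSC minus sham was 1.11 log2 (adjusted p = 0.0189) and CLP minus sham 0.68 (adjusted p = 0.0718). Bpifb1 (-0.45, adjusted p = 0.204), Scgb3a1, a secretoglobin (0.29, adjusted p = 0.549), Gabrp, a GABA receptor subunit (-0.29, adjusted p = 0.119), Retnla, a secreted resistin-like protein (-0.12, adjusted p = 0.91), and Chil3, a chitinase-like protein of macrophages (0.27, adjusted p = 0.694), did not pass in CLP against sham lungs.

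Of the 4 probes for endothelium, mesenchyme and signals, Wnt3a, a Wnt ligand, fell and Gdnf, a neurotrophic factor, rose in CLP lungs. Wnt3a read 8.70, 8.82, 9.15, 8.82 and 9.02 in MSC lungs, 7.88, 8.80, 6.47, 7.87 and 9.33 in CLP lungs and 9.64, 9.29, 9.69, 9.37 and 9.31 in sham lungs. Its CLP lungs were spread widely, with 107C inside the sham range and 35C lowest (-1.39 log2, SE 0.35, adjusted p = 0.00755). Gdnf differed by 0.59 log2 (adjusted p = 0.0403). Tmem100 (-0.24, adjusted p = 0.2) and Tbx4, a transcription factor of lung mesenchyme (-0.23, adjusted p = 0.359), did not pass.

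Among the 33 remaining probes 15 fell and 0 rose in CLP lungs, where 16.5% and 15.9% of all probes did. The largest called change of all members was among the 33. Nckap5, whose role in lung is not well known, read 9.02, 9.05, 9.39, 9.27 and 8.58 in MSC lungs, 7.92, 8.20, 7.74, 7.70 and 9.37 in CLP lungs and 10.13, 10.28, 10.23, 9.96 and 9.93 in sham lungs. All MSC and CLP lungs lay below all sham lungs, and it was 3.79-fold lower in CLP than in sham lungs (SE 0.25 log2, adjusted p = 7.4e-05). 1700024G13Rik read 9.91, 10.03, 10.41, 10.83 and 10.52 in MSC lungs, 9.02, 9.27, 7.66, 8.61 and 10.44 in CLP lungs and 10.56, 10.46, 10.77, 10.61 and 10.52 in sham lungs. It fell by 1.58 log2 in CLP against sham lungs (adjusted p = 0.00286), and MSC minus CLP was 1.34 log2 (SE 0.34, adjusted p = 0.0708). The microtubule-associated Mtus1 (-1.46), Fam162b (-1.45) and the unnamed ILMN_2835481 (-1.10) also fell without overlap of the arms.

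Between MSC and CLP lungs the widest differences at an unadjusted p below 0.05 were, upward, those of the unnamed ILMN_1212806 (1.52), 1700024G13Rik (1.34), Cfap161 (1.18), Mtus1 (1.0) and the unnamed ILMN_2450117 (0.98). Downward they were those of the unnamed ILMN_2602097 (-1.35), both Gprc5a probes, Kcnrg (-0.39) and the potassium channel subunit Kcne2 (-0.32). ILMN_2450117 read 11.84, 11.82, 11.74, 11.79 and 11.78 in MSC lungs, 11.19, 11.32, 9.94, 10.15 and 11.47 in CLP lungs and 11.60, 11.73, 11.72, 11.57 and 11.68 in sham lungs. Every CLP lung lay below every lung of the other arms. None of these passed the adjusted threshold in the full set of lungs (adjusted p between 0.0708 and 0.188).

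Within the CLP arm the members did not fall evenly over mice. Of the 38 members that fell, 107C had the highest CLP lung for 25, 34C for 9, 35C for 3, 24C for 1 and 37C for 0. The lowest CLP lung was 35C for 22, 37C for 12, 24C for 3, 107C for 1 and 34C for 0. Over all 8684 probes tested, 107C (0.468) and 35C (0.421) were also the lungs farthest from the rest of their arm. The same counts over all probes that fell are not given here, so this unevenness is not shown to be particular to the members. Over all 76 members the mean level was 10.38 to 10.62 in MSC lungs, 10.01 to 10.48 in CLP lungs and 10.57 to 10.79 in sham lungs, so all CLP lungs were below all sham lungs.

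The difference between MSC and CLP mice was then compared between lung and the mean of liver, kidney and heart. Of the members 1 was called, 1700024G13Rik (1.66 log2, SE 0.32, adjusted p = 0.0145), where 0.0858% of all probes were. With the mouse as a block, since organs with the same number come from the same animal, 3 members were called (0.309% of all probes). The call was lost on leaving out mouse 35C, 37C, 61M or 100M. Without 107C 12 members were called, where 3.12% of all probes were. At an unadjusted p below 0.05 the count was 28 members, where 8.99% of all probes passed.

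Outside the lung, most members are near the lower end of the scale, and 11 were tested in liver, 21 in kidney, 35 in heart and 22 in spleen. A member is tested there only where it exceeds 6 log2 in enough arrays, so a member that is low in sham mice enters through the arms where it is high, and the sham arrays chose the members. The counts are therefore a description. Between MSC and CLP mice 0 members were called by limma in any of these organs, where 5.96% of all probes were in liver, 0.0227% in kidney, 0.0113% in heart and 0% in spleen. At an unadjusted p below 0.05 the counts were 1 of 11 in liver, 6 of 21 in kidney, 8 of 35 in heart and 0 of 22 in spleen, where 29.2%, 27.1%, 17.4% and 3.87% of all probes passed. Without CLP mouse 107C, 4 members were called in liver, 7 in kidney and 3 in heart, where 29.6%, 33.9% and 7.43% of all probes were.

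In liver 4 members rose and 1 fell after CLP (24% and 19.9% of all probes, 43.8% in either direction). The rises were Ltf (2.10 log2), Chil3 (1.84), the autophagy-linked membrane protein Dram1 (0.78) and Gprc5a (0.64), and Emp2 fell (-1.36). Without CLP mouse 107C 9 members were called, where 50.3% of all probes were. Chil3 in liver read 6.83, 6.19, 6.75, 5.77 and 6.68 in MSC mice, 6.69, 7.48, 7.54, 7.44 and 6.00 in CLP mice and 5.02, 5.67, 5.16, 4.42 and 5.65 in sham mice. All CLP livers lay above all sham livers, and so did all MSC livers. In kidney 8 members rose and 5 fell after CLP (20.4% and 20.7% of all probes, 41% in either direction). Kidney Muc1 read 9.60, 9.37, 9.06, 8.70 and 8.31 in MSC mice, 9.48, 9.32, 9.49, 9.57 and 8.78 in CLP mice and 7.67, 8.17, 8.02, 8.17 and 8.02 in sham mice. Muc1 thus rose in CLP kidneys (1.32 log2) without overlap, while it fell in CLP lungs. The other large kidney rises were those of the unnamed ILMN_2728134 (1.50) and Gprc5a (1.36 and 1.09 by its 2 probes). The kidney falls were Clic3 (-2.16), Retnla (-1.81), the chloride channel protein Clic6 (-1.45), Lypd2 (-1.17) and Sec14l3 (-0.61). Kidney Clic3 read 6.42, 6.77, 7.11, 7.50 and 7.08 in MSC mice, 5.54, 5.87, 5.37, 5.48 and 7.95 in CLP mice and 8.53, 7.90, 8.27, 8.21 and 8.11 in sham mice. Mouse 107C was again the CLP mouse closest to sham.

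In hearts the 5 arrays with high Scgb1a1 also carried airway members. For 26 members each of these 5 hearts lay above all the other 10, and these were 10 of 17 cilia probes, 5 of 9 airway probes, 11 of 33 others, 0 of 13 alveolar probes and 0 of 4 for endothelium, mesenchyme and signals. The share of all probes that did so is not given here, so the count is a description of the members alone. Bpifb1 read 9.52 to 12.80 in the 5 hearts and 5.24 to 5.91 in the other 10. Scgb3a1 read 6.94 to 9.85 in the 5 hearts and 4.68 to 5.28 in the other 10, and Dynlrb2 7.20 to 9.20 and 4.64 to 6.83. The 5 hearts are 1 of 5 MSC, 3 of 5 CLP and 1 of 5 sham hearts, so they were spread unevenly over the arms. Counts of calls in heart are given with and without them. In lungs Scgb1a1 read 13.81 to 14.15 in all 15 mice.

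**Figure D5:**
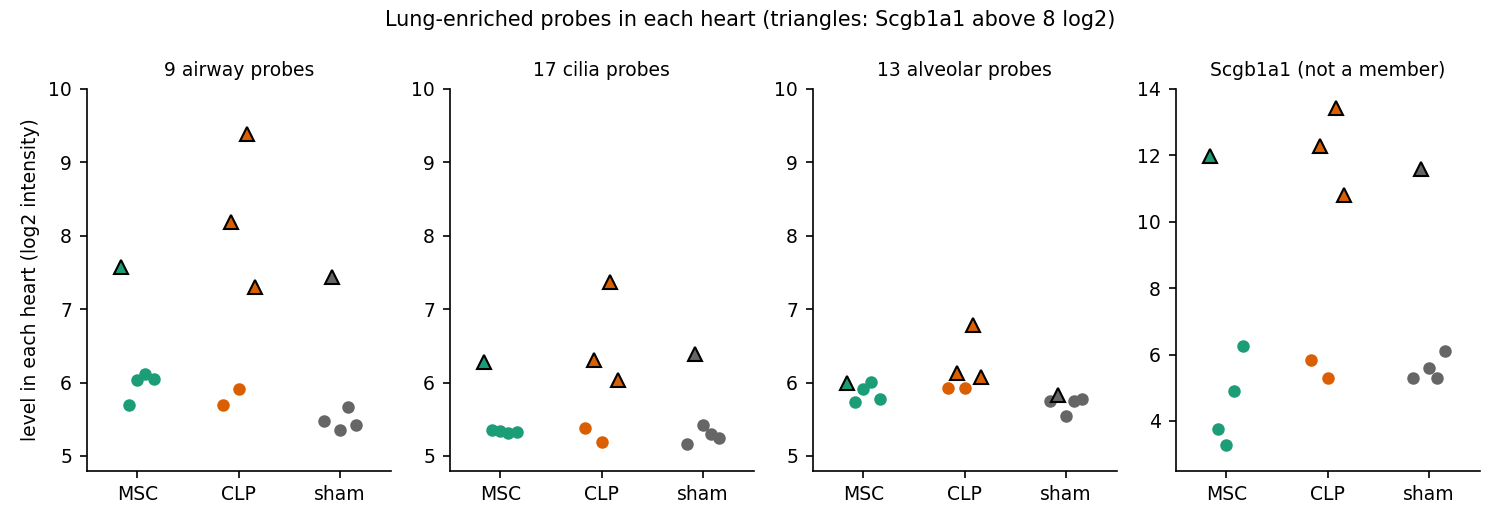
Mean log2 intensity of airway, cilia and alveolar probes, and the level of Scgb1a1, in each of the 15 hearts, by arm. Triangles are the 5 hearts with Scgb1a1 above 8 log2, which lie above the other 10 for airway and cilia probes.

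With all hearts 12 members rose and 1 fell after CLP (8.42% and 9.04% of all probes, 17.5% in either direction), with a median difference of 1.01 log2 over the 35 tested. Without the 5 hearts, which leaves 4 MSC, 2 CLP and 4 sham hearts, 11 of 27 tested members rose and 4 fell (13.7% and 15.8% of all probes, 29.5% in either direction), and the median difference was 0.19. The 4 were Nckap5 (-1.42), Cyp2s1 (-1.27), Tppp3 (-0.98) and Emp2 (-0.56), of which Nckap5 alone passed with all hearts. Of the 12 rises with all hearts, those of Dram1 and Chil3 did not pass without the 5. Their differences were then 0.76 and 0.94 log2 (limma adjusted p = 0.15 and 0.104). The lone pair of CLP hearts is then taken to vary like the other arms. Tmem100 in heart read 11.59, 11.02, 10.51, 10.85 and 11.20 in MSC mice, 12.31, 11.65, 11.99, 11.19 and 10.90 in CLP mice and 9.34, 10.55, 10.12, 10.14 and 9.36 in sham mice. All CLP hearts lay above all sham hearts, and the difference was 1.71 log2 with all hearts and 2.12 without the 5. Gprc5a in heart, by 1 probe, read 7.27, 7.07, 6.31, 6.64 and 7.07 in MSC mice, 7.70, 7.74, 8.06, 7.99 and 7.13 in CLP mice and 6.09, 6.50, 5.88, 6.04 and 6.54 in sham mice. It too did not overlap between CLP and sham hearts. Ltf differed by 3.66 log2 with all hearts but did not pass (adjusted p = 0.0697), with 10.91 to 14.04 in the 5 hearts and 5.30 to 9.09 in the other 10. Without the 5 it rose by 2.01 (adjusted p = 0.00681). The largest rise that passed with all hearts, that of Dmkn (2.97), was 1.29 without the 5, of which CLP mouse 37C read 13.51. Both probes of 2610028H24Rik rose with all hearts (1.66 and 1.67) and without the 5 (1.97 and 2.06). Muc1 rose by 1.78 with all hearts and 1.35 without the 5, Anxa8 by 1.77 and 1.19, and Nckap5 fell by 1.25 with all hearts.

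In spleen, under the arms as the table's header names them, 4 members rose and 3 fell after CLP (7.22% and 6.28% of all probes, 13.5% in either direction). The rises were Tmem100 (2.06 log2), Dram1 (1.04), the unnamed ILMN_2728134 (0.95) and Rsph1 (0.69), and the falls Retnla (-1.41), the cytochrome P450 Cyp2s1 (-1.19) and Tppp3 (-0.81). Spleen Tmem100 read 7.99, 7.87, 7.64 and 9.26 in MSC mice, 7.39, 8.68, 8.35 and 10.78 in CLP mice and 6.83, 6.65, 6.77 and 6.71 in sham mice. Under the arms that the other deposited table gives, 0 members were called (0% of all probes), and without the 2 spleens that change arm 4 were called (4.52%). Leaving out spleen B of the CLP arm gave 11 calls (26.7% of all probes), and leaving out CLP3, s1, s2 or s3 gave 4. The spleen calls rest on labels that the deposited tables do not give alike.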

How the data were processed

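Transcripts were measured on 72 arrays, whose number limits the precision. The authors deposited log2 intensities between 0.01 and 16.03, which the deposit itself calls non-normalized. Sorted values coincide among the 12 spleen arrays and among the 60 others, which shows quantile normalization of the deposited log2 values within each set. This is inferred from the values, since the sources used here name no software, background correction or genome build. Of 45255 complete rows, 22751 are offset by 12 columns from the header and were left out. A second deposited table, the series matrix, holds the same log2 values shifted per probe and was used for alternatives, for Scgb1a1 and for marker lists over all probes. Probes were named from the platform annotation. Levels of different probes are not compared as amounts.

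Each organ had 1 linear model over its 3 arms (lmFit and eBayes of limma 3.58.1 in R 4.3.3), on probes above 6 log2 in at least 5 arrays (4 in spleen), with Benjamini-Hochberg adjusted p below 0.05 over all probes tested. Lung was compared with other organs over 60 arrays. Mice are numbered alike in 4 organs, so organs of a number come from 1 animal, and the consensus correlation with the mouse as a block was 0.137. The labels give no cultures or cages, so p-values measure the spread between these mice. Genes named were the largest rises and falls per comparison, the highest and widest-gap members, members of cell type lists, the members and probes next to the threshold, the largest rises outside the lung and genes with several probes. Further members in the text were chosen after their values were seen. Members, lists, roles, promoter motifs and tests were all chosen with earlier results of these data known. Scripts were tested on simulated data.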

Additional observations from a re-analysis of the deposited data

Results flagged for a closer look

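Of 105 groups of 4 or 5 arrays examined, 5 held an array far from the rest of its arm by Dixon's criterion, which chance gives in about 1 of 20 groups. The unnamed probe ILMN_1212806 gave 3 of the 5, with MSC mouse 16M highest at 10.73 log2 (others 9.96 to 10.14), CLP mouse 35C lowest at 6.43 (others 8.92 to 9.65) and sham mouse 78S highest at 10.13 (others 9.19 to 9.45). Anxa8 in heart read 9.80 in CLP mouse 37C (other CLP hearts 6.44 to 7.19), and this is 1 of the 5 hearts with high Scgb1a1. The mean of the 33 members of other roles was lowest in the lung of sham mouse 77S, at 9.89 (others 9.97 to 9.99). A difference between organs was called for 1700024G13Rik, whose MSC minus CLP difference was 1.66 log2 larger in lung than on average in liver, kidney and heart (adjusted p = 0.0145).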

How the results depend on the processing

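The count of members called between MSC and CLP lungs was 0 in the full set and 32 with array weights (14.4% of all probes). It was 0 to 42 on leaving out 1 lung, with 42 without CLP mouse 107C (23.8% of all probes). The count between CLP and sham lungs was 34 (26% of all probes) to 48 (42.3%) on leaving out 1 lung. It was 78 of 146 members with a gap of 2 log2 in the rule and 29 of 43 with a gap of 4 (32.4% of all probes). The count between MSC and sham lungs was 20 with only those arms in the fit (16.4% of all probes). It was 24 of 146 and 7 of 43 with gaps of 2 and 4 (9.11%). On leaving out 1 lung it was 7 to 16, and the shares over those settings ran between 6.46% and 12.7%. In the test of lung against other organs the replicate block (mouse) gave 3 members (36 of 11660 probes) and array weights 24 (731 of 11660). Leaving out the 5 hearts with high Scgb1a1 gave 3 (24 of 12746 probes), and leaving out 1 mouse 0 to 12. The block changed no other count of calls by over 1.5 times. Members higher in lung than in the other organs numbered 73 to 76 in CLP mice and 75 to 75 in MSC mice on leaving out 1 mouse. The number of members was 72 to 77 on leaving out 1 sham array, and 75 with sham spleens as the series matrix labels them. With series matrix values the rule gave 67 over the same probes, of which 56 were among the 76 members. Over all probes of the series matrix it gave 143, with the same 56 shared.

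Outside the lung, shares over all probes follow in brackets. Beside a range of counts they are the lowest and highest shares over the same settings, which need not belong to the end counts. In liver, CLP against sham gave 10 of 76 without the filter (15.7%) and 3 of 4 with a floor of 7 log2 (55.7%). On leaving out 1 array liver gave 5 to 9 (37.2% to 50.3%). Kidney gave 8 of 12 with that floor (48.7%) and 10 to 14 on leaving out 1 array (31.2% to 53.1%). Heart gave 7 of 20 with that floor (23.1%), 20 of 35 with array weights (35.1%) and 10 to 15 on leaving out 1 array (11.2% to 30.9%). Spleen gave 4 of 9 with that floor (19.4%) and 12 of 22 with array weights (29.9%). It gave 4 of 23 without the 2 disputed spleens (4.52%), 0 of 22 with the matrix arms (0%) and 4 to 11 on leaving out 1 array (4.74% to 26.7%). MSC against CLP gave with array weights 1 of 11 in liver (26.6%), 6 of 21 in kidney (29%) and 3 of 35 in heart (8.64%). Without the 5 hearts it gave 7 of 27 in heart (13.7%). On leaving out 1 array it gave 0 to 4 in liver (0% to 29.6%) and 0 to 7 in kidney (0.0111% to 33.9%). In heart it then gave 0 to 3 (0% to 7.43%) and in spleen 0 to 0 (0%). The cause of these shifts was not tested. In the lung counts, scaling, repeated quantile normalization, series matrix values and trended variance moved no count by over 1.5 times, and named probes kept their direction. A block for slide or scan and normexp could not be run, since no slide or background columns were used. The spleen settings, the hearts left out and the series matrix probes were chosen after seeing the data.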

Other observations

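Marker genes of the lung, members among them, gave the setting of these changes. Of all 20051 probes tested in the series matrix, 13.8% were higher and 15% lower in CLP than in sham lungs. Neutrophil markers rose in 13 of 20 probes and fell in 0, led by the granule genes Ngp (5.57 log2), Camp (3.80) and Lcn2 (2.60) and by the decoy receptor Il1r2 (2.93). Lymphocyte markers fell in 11 of 13 probes and rose in 0, among them the B cell receptor subunit Cd79b (-2.28 and -2.10 by its probes) and the T cell receptor subunit Cd3g (-1.53).

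Of 38 endothelial marker probes 17 fell and 2 rose, among them the capillary carbonic anhydrase Car4 (-1.58), the endothelial sialomucin Emcn (-1.26) and the angiopoietin receptor Tek (-1.25). Of 23 ciliated cell probes 17 fell and 1 rose, of 32 alveolar type 2 probes 16 fell and 0 rose, and of 25 alveolar type 1 probes 15 fell and 2 rose. Of 18 club cell probes 2 fell and 3 rose, and of 20 alveolar macrophage probes 3 fell and 2 rose. The surfactant gene Sftpc differed by -0.10 log2 and Sftpd by 0.17, and neither passed. These lists include members, namely 11 of the ciliated, 8 of the type 2, 6 of the type 1 and 3 of the club cell probes. The endothelial, alveolar macrophage and neutrophil lists hold 1 each, so these falls are in part those already described.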
